A study of Rattus norvegicus with 24 samples.

Results

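Cells of the kidney hold their volume in a salty surrounding by taking up or making small organic osmolytes, and 6 genes of that system were followed here in rat kidney. They are the carriers of myo-inositol (Slc5a3), betaine (Slc6a12) and taurine (Slc6a6), aldose reductase (Akr1b1), which makes sorbitol from glucose, sorbitol dehydrogenase (Sord), which turns sorbitol into fructose, and Nfat5, the transcription factor of the hypertonic response. The set was chosen by pathway after a low Slc5a3 signal had been seen in one congenic strain, ET3x2, so the measured Slc5a3 values of that strain are given as a description with no test. All probe sets that carry 1 of the 6 symbols and no other were taken from both arrays of the study. There were 10, for 5 of the 6 genes, of 31142 probe sets for 13810 genes, and all 10 passed the filter on low signal that left 21799 probe sets for 11218 genes. Slc6a12 was not matched to a probe set and is not analysed here.

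The study compared left kidneys of male rats of 3 strains, each represented by 4 pools of RNA. SS/jr (S) is the inbred Dahl salt-sensitive rat, and ET3x1 and ET3x2 are congenic substrains that carry a piece of chromosome 3 from a salt-resistant strain on the S background. All rats had eaten 0.4% NaCl until 39 to 41 days of age and 2% NaCl for the next 28 days, and were 67 to 69 days old. A pool held equal amounts of RNA from 2 rats in S (pools A to D) and from 3 rats in ET3x1 (pools E to H) and ET3x2 (pools I to L), 32 rats in all, and each pool was hybridised to an Affymetrix RAE230A and an RAE230B array. Every sample used here is from the S background and from the second diet, and the limits of the congenic pieces are not given in the sources used here. The number of pools limits the precision, and p-values rest on the spread among pools made from different rats, with fewer rats behind an S pool than behind a congenic one.

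The inner kidney, or medulla, is the saltiest tissue of the body, and its cells keep high levels of sorbitol, myo-inositol, betaine, taurine and glycerophosphocholine, which balance the salt outside without harming proteins. Nfat5 enters the nucleus under hypertonic stress and raises the transcription of Slc5a3, Slc6a12, Slc6a6, Akr1b1 and heat shock genes by binding the tonicity-responsive element. Sord is placed differently, because it removes the osmolyte that Akr1b1 makes.

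The bases before the start of Slc5a3 and Slc6a6 are shown because Nfat5 acts on both carriers through a short DNA element, and because these 3 genes are the ones with a low probe set in ET3x2. They are the 250 bases upstream of the annotated start, from RefSeq (GRCr8, plus strand, which is the coding strand), in lower case with each TGGAAA, the core of the tonicity-responsive element, in capitals (TTTCCA where it reads on the other strand). Of the 6 genes, 4 had an entry in the table used (Slc5a3, Slc6a12, Slc6a6 and Sord), and Mrps6 is added because in that annotation Slc5a3 lies within the span of Mrps6, which encodes a protein of the mitochondrial ribosome.
Slc5a3, chr11:44799537-44799786: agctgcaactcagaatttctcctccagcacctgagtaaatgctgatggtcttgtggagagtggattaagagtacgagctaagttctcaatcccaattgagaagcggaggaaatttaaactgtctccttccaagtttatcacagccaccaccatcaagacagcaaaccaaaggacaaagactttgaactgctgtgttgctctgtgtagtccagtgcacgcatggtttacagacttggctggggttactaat
Mrps6, chr11:44778417-44778666: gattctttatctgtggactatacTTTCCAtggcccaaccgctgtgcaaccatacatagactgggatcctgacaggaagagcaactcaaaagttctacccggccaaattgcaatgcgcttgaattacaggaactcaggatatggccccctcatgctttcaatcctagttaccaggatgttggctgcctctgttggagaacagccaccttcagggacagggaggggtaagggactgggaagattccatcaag
Slc6a6, chr4:125752252-125752501: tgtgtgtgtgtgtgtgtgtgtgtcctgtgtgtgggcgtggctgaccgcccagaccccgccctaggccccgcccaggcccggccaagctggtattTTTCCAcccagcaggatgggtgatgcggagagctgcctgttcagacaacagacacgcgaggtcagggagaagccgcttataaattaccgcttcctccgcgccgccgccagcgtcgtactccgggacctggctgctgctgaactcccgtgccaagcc
The Slc5a3 window held no match, the Mrps6 window held 1 at bases 227 to 222 before the start, and the Slc6a6 window held 1 at bases 156 to 151 before it. The 6 letters occur, on either strand, in 6592 of 33469 RefSeq windows of this length, or 19.7%. A match describes the letters of the window only, and none was found in the windows of Sord and Slc6a12. Because Slc5a3 lies within Mrps6, the window before its annotated start may not be where its transcription begins, which was not tested.

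Pools differed in one technical measure that bears on the results for Sord. RNA was copied from its 3′ end, and the actin control compares the signal near the 5′ end of the actin messenger with that near its 3′ end. On RAE230A the 5′ minus 3′ signal was -1.27 log2 units in pool A, -1.27 in pool B and -1.14 in pool J, and lay between -2.10 and -1.66 in the other 9 pools. Column medians lay between 8.50 and 8.61 log2 units on RAE230A and between 7.55 and 7.62 on RAE230B. Values without pools A, B and J are given where they moved a result.

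Slc5a3, the sodium-coupled myo-inositol carrier, had the lowest signals in ET3x2 on its brighter probe set, 1392349_at of RAE230B (gene on chromosome 11). The S pools A to D read 10.77, 10.47, 10.74 and 10.58 log2 units. The ET3x1 pools E to H read 10.55, 10.45, 10.45 and 10.36, and the ET3x2 pools I to L read 9.67, 9.72, 9.48 and 9.71. All 4 ET3x2 pools lay below every pool of S and of ET3x1, while ET3x1 and S overlapped.

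The means of 1392349_at were 10.64 ± 0.14 in S, 10.45 ± 0.081 in ET3x1 and 9.64 ± 0.11 in ET3x2 (SD, n = 4 pools each). The ET3x2 mean was lower than that of S by 0.99 (SE 0.083), which on the linear scale is 50.2% of the S level, and 5 of the 10693 probe sets tested on the array differed more between these strains. It was lower than that of ET3x1 by 0.81 (SE 0.083), or 57.2% of the ET3x1 level. These differences are those the set was chosen by, and no test is read from them. Across the alternative processings the difference from S ran from -1.05 to -0.94 and the difference from ET3x1 from -0.85 to -0.75.

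Between ET3x1 and S the same probe set was tested, since that contrast played no part in the choice. The ET3x1 mean was 0.19 lower (SE 0.083, 95% interval -0.37 to -0.0095), and it did not pass at an adjusted p of 0.458 in limma (Benjamini-Hochberg). The order of the strains was therefore S, ET3x1 and ET3x2, with S and ET3x1 not separated beyond the spread of their pools.

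A dimmer Slc5a3 probe set on the same array, 1379066_at, did not follow that order. It read 7.48, 7.35, 7.41 and 7.40 log2 units in S, 7.35, 7.40, 7.40 and 7.37 in ET3x1, and 7.40, 7.41, 7.49 and 7.52 in ET3x2. Its ET3x2 mean was 0.043 above that of S (SE 0.051) and 0.076 above that of ET3x1 (SE 0.051), differences within the spread of the S pools or just past it. The ET3x2 pools overlapped with those of S. Every ET3x2 pool lay above every ET3x1 pool, though the nearest pools of both strains rounded to 7.40. On the brighter probe set the ET3x2 pools all lay below the ET3x1 pools, so the directions were opposite. These too are descriptions. ET3x1 lay 0.033 below S (SE 0.051, limma adjusted p = 0.865). The signal lay near the filter level of the array, 6.85 log2 units. Which part of the Slc5a3 messenger each probe set reads is not given in the sources used here. Averaged over both probe sets, the Slc5a3 difference of ET3x2 was -0.48 from S and -0.37 from ET3x1.

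Mrps6, within whose span Slc5a3 lies, did not share the low signal of ET3x2. Probe set 1389110_at of RAE230A read 10.72, 10.55, 10.79 and 10.60 in S, 11.01, 11.04, 11.11 and 10.92 in ET3x1, and 10.76, 10.67, 10.86 and 11.08 in ET3x2. Every ET3x1 pool lay above every S pool, and the ET3x2 pools overlapped with both. The ET3x1 mean was 0.36 above that of S (SE 0.093, limma adjusted p = 0.17), and the ET3x2 mean was 0.18 above that of S and 0.18 below that of ET3x1 (adjusted p = 0.39 for the latter), so no difference passed.

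**Figure D1:**
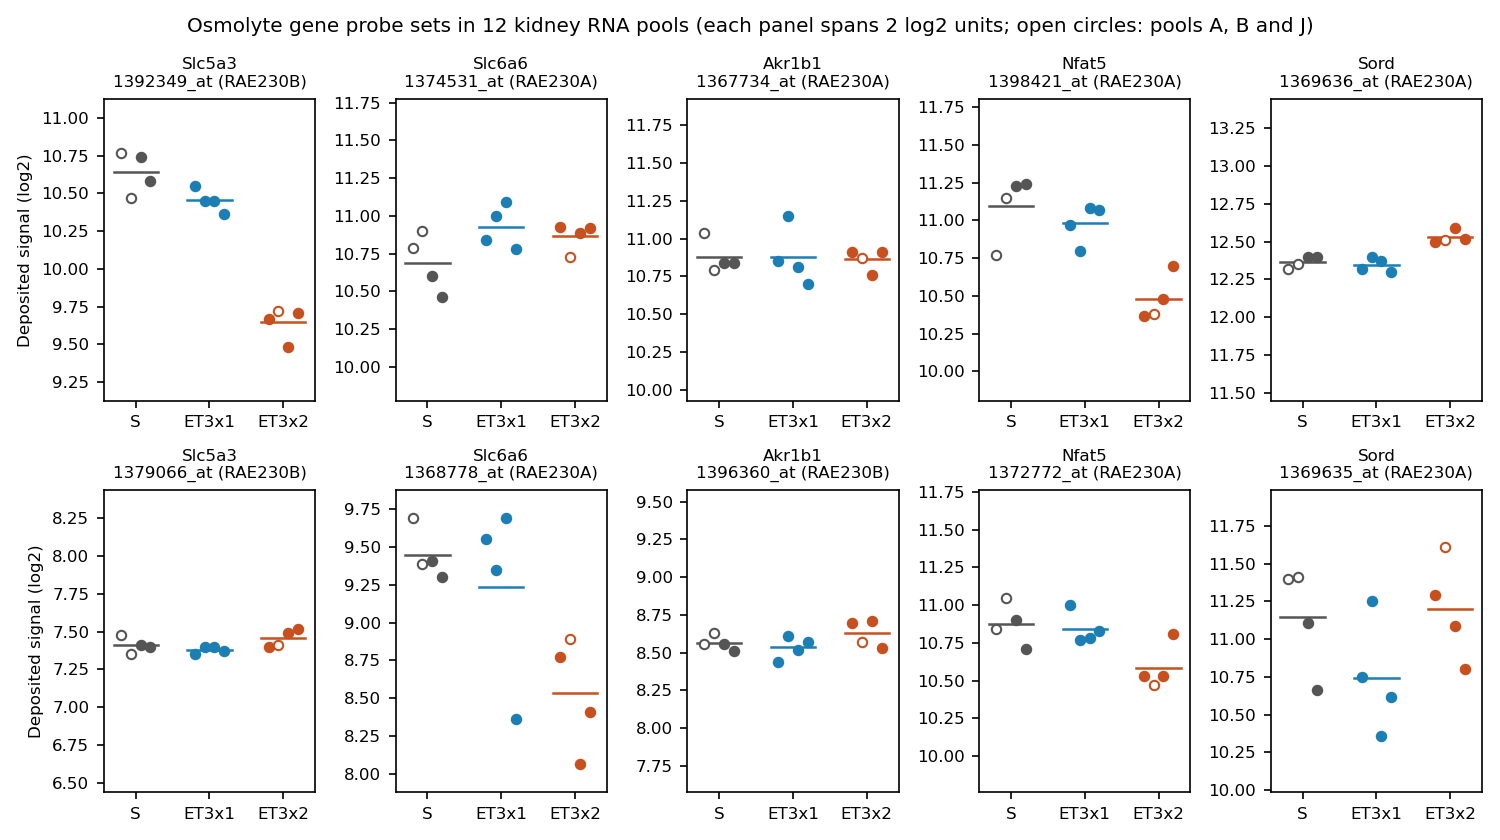
Deposited log2 signal (vertical axis) of the 10 probe sets in each of the 12 pools by strain (horizontal axis), 1 panel per probe set with the brighter probe set of each gene above and the dimmer below; points are pools, lines are strain means, and open circles are pools A, B and J. Every panel spans the same number of log2 units, so that the low ET3x2 signals of Slc5a3 1392349_at (9.48 to 9.72, against 10.47 to 10.77 in S) can be set beside the flat panels of Akr1b1.

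Slc6a6, the taurine carrier (chromosome 4), differed between its probe sets, both of RAE230A. The brighter, 1374531_at, read 10.79, 10.90, 10.60 and 10.46 in S, 10.84, 11.00, 11.09 and 10.78 in ET3x1, and 10.93, 10.73, 10.89 and 10.92 in ET3x2. All strains overlapped, with S pools C and D the lowest of the 12. The dimmer, 1368778_at, read 9.69, 9.39, 9.41 and 9.30 in S, 9.55, 9.35, 9.69 and 8.36 in ET3x1, and 8.77, 8.89, 8.06 and 8.41 in ET3x2. Here the ET3x2 pools all lay below the S pools, and pool H stood apart from the other ET3x1 pools at the level of ET3x2.

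On 1374531_at the ET3x1 mean was 0.24 above that of S (SE 0.10, limma adjusted p = 0.336), and 0.40 above it without pools A, B and J (adjusted p = 0.196). The ET3x2 mean was 0.18 above that of S, or 0.38 without pools A, B and J, which is a description, and 0.060 below that of ET3x1 (SE 0.10, 95% interval -0.28 to 0.16, adjusted p = 0.823).

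On 1368778_at the ET3x2 mean was 8.53 ± 0.37 against 9.45 ± 0.17 in S (SD, n = 4), lower by 0.91 (SE 0.24) or 53.0% of the S level. Of the 11106 probe sets tested on the array, 10 differed more between these strains, which is again a description. Against ET3x1, whose mean was 9.24 ± 0.60, it was 0.71 lower (SE 0.24, limma adjusted p = 0.185) and did not pass. Without pool H that difference was -1.0 with an adjusted p of 0.0137, and with array weights, which lower the weight of pools that vary more, it was -0.82 with 0.0422. Those were the only 2 of 20 alternative processings in which it passed, and the adjusted p ran up to 0.454. The ET3x1 difference from S was -0.21 (SE 0.24, adjusted p = 0.731) with all pools and 0.083 without pool H, so its direction rested on that pool. The correlation between the Slc6a6 probe sets over the 12 pools was -0.0466, and averaged over both the ET3x2 difference from S was -0.37, against 0.18 on the brighter one.

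Akr1b1, aldose reductase (chromosome 4), had closely alike signals in the 3 strains. Probe set 1367734_at of RAE230A read 11.04, 10.79, 10.84 and 10.84 in S, 10.85, 11.15, 10.81 and 10.70 in ET3x1, and 10.91, 10.87, 10.76 and 10.91 in ET3x2. No strain stood apart, and the highest and the lowest of the 12 pools were both from ET3x1.

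The ET3x1 mean of 1367734_at differed from that of S by 0.0016 (SE 0.097, 95% interval -0.21 to 0.21, limma adjusted p = 0.996). The ET3x2 mean differed from that of ET3x1 by -0.015 (95% interval -0.22 to 0.19, adjusted p = 0.956) and from that of S by -0.013. The intervals leave room for differences of about that width in either direction. The dimmer probe set 1396360_at, on RAE230B, lay between 8.44 and 8.71 in all 12 pools. It differed by -0.029 between ET3x1 and S (SE 0.060, adjusted p = 0.902), by 0.064 between ET3x2 and S, and by 0.092 between ET3x2 and ET3x1 (adjusted p = 0.589).

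Sord, sorbitol dehydrogenase, is the only gene of the set on chromosome 3, the chromosome of the congenic pieces. In the RefSeq order 599 protein-coding genes lie between it and Edn3, the endothelin gene for which these congenic strains are known. Its brighter probe set, 1369636_at of RAE230A, read 12.32, 12.35, 12.40 and 12.40 in S, 12.32, 12.40, 12.37 and 12.30 in ET3x1, and 12.50, 12.51, 12.59 and 12.52 in ET3x2. All ET3x2 pools lay above all pools of both other strains, by a small step.

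The means of 1369636_at were 12.37 ± 0.039 in S, 12.35 ± 0.044 in ET3x1 and 12.53 ± 0.043 in ET3x2 (SD, n = 4). The ET3x2 mean was 0.18 above that of ET3x1 (95% interval 0.051 to 0.31), or 113% of it, and this did not pass in limma at an adjusted p of 0.18. The difference passed in 1 of 20 alternative processings, array weights (0.0293), and the adjusted p ran up to 0.415. Against S the ET3x2 mean was 0.16 higher, a description. ET3x1 and S differed by -0.018 (SE 0.061, adjusted p = 0.919). In order of level the strains were ET3x2, S and ET3x1, the last 2 within their spread.

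The dimmer Sord probe set, 1369635_at, moved with the actin control instead. It read 11.40, 11.41, 11.11 and 10.66 in S, 10.75, 11.25, 10.36 and 10.62 in ET3x1, and 11.29, 11.61, 11.09 and 10.80 in ET3x2. The highest of the 12 were pools J, B and A, the pools with the smallest 5′ loss of actin, and all strains overlapped. Over the 12 pools Pearson's r with the actin 5′ minus 3′ signal was 0.848 for this probe set and 0.0473 for 1369636_at, and it lay between -0.408 and 0.39 for the 8 probe sets of the other genes. The pools share strain, extraction and array in this description, and 3 of them carry much of its range.

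The ET3x1 mean of 1369635_at was 0.40 below that of S (SE 0.21, limma adjusted p = 0.413), and 0.14 below it without pools A, B and J (adjusted p = 0.848). The ET3x2 mean was 0.45 above that of ET3x1 (SE 0.21, adjusted p = 0.317), 0.51 above it with array weights (adjusted p = 0.0458), 0.32 above it without those pools (adjusted p = 0.48), and 0.052 above that of S. Array weights were the only 1 of 20 alternatives in which the difference between the congenic strains passed, and its adjusted p ran up to 0.616. The part of RNA quality in the signals of this probe set was not tested beyond these values.

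**Figure D2:**
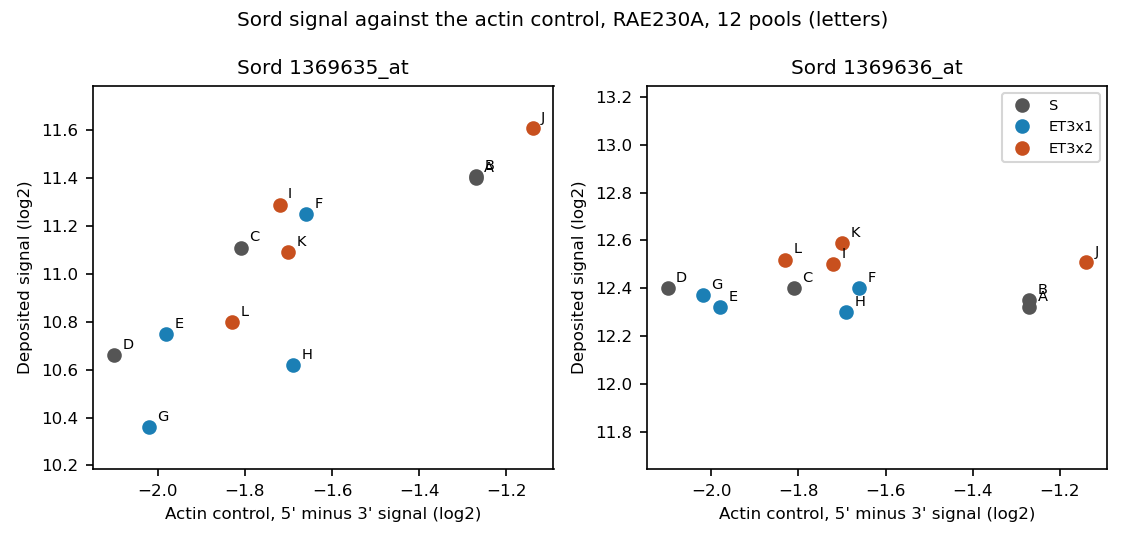
Deposited log2 signal of the Sord probe sets 1369635_at (left) and 1369636_at (right) against the actin control, as 5′ minus 3′ log2 signal, on RAE230A; each point is a pool with its letter, coloured by strain, and both vertical axes span the same number of log2 units. On the left pools A, B and J stand at the upper right (11.40, 11.41 and 11.61), and on the right the ET3x2 pools form a level row at 12.50 to 12.59 above the others.

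Nfat5, the regulator of the carriers and of Akr1b1 (chromosome 19), was lowest in ET3x2 on both of its RAE230A probe sets. Probe set 1398421_at read 10.77, 11.15, 11.23 and 11.24 in S, 10.97, 10.80, 11.08 and 11.07 in ET3x1, and 10.37, 10.38, 10.48 and 10.70 in ET3x2. The ET3x2 pools all lay below the pools of the other strains, with pool L close to pool A of S and pool F of ET3x1. Probe set 1372772_at read 10.84, 11.05, 10.90 and 10.71 in S, 11.00, 10.77, 10.78 and 10.83 in ET3x1, and 10.53, 10.47, 10.53 and 10.81 in ET3x2. Pools I, J and K were the lowest 3 of the 12, while pool L fell among the other strains.

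The means of 1398421_at were 11.10 ± 0.22 in S, 10.98 ± 0.13 in ET3x1 and 10.48 ± 0.16 in ET3x2 (SD, n = 4). Against ET3x1 the ET3x2 mean was 0.50 lower (SE 0.11, 95% interval -0.74 to -0.25), or 70.7% of it, with an adjusted p of 0.0533 in limma. It thus missed the threshold of 0.05, and it passed in 8 of 20 alternative processings, over which the adjusted p ran from 0.00466 to 0.197. The ones that passed included array weights (0.00466) and leaving out pool A (0.0234), D (0.0407), F (0.0324) or L (0.0312). The difference itself ran from -0.57 to -0.46. Against S the ET3x2 mean was 0.62 lower (SE 0.11), or 65.2% of it, a description.

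ET3x1 and S did not differ beyond their spread for Nfat5, with -0.12 on 1398421_at (SE 0.11, limma adjusted p = 0.68, and -0.25 with 0.553 without pools A, B and J) and -0.034 on 1372772_at (adjusted p = 0.904). On 1372772_at the ET3x2 mean was 0.26 below that of ET3x1 (SE 0.097, adjusted p = 0.225). That difference passed in 1 of 20 alternative processings, array weights (0.0274), and the adjusted p ran up to 0.485. The ET3x2 mean was 0.29 below that of S, and 0.18 below it without pools A, B and J. Both probe sets put the strains in the order S, ET3x1 and ET3x2. Over the 12 pools they correlated at 0.758, and at 0.343 once each strain's mean was taken away.

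**Figure D3:**
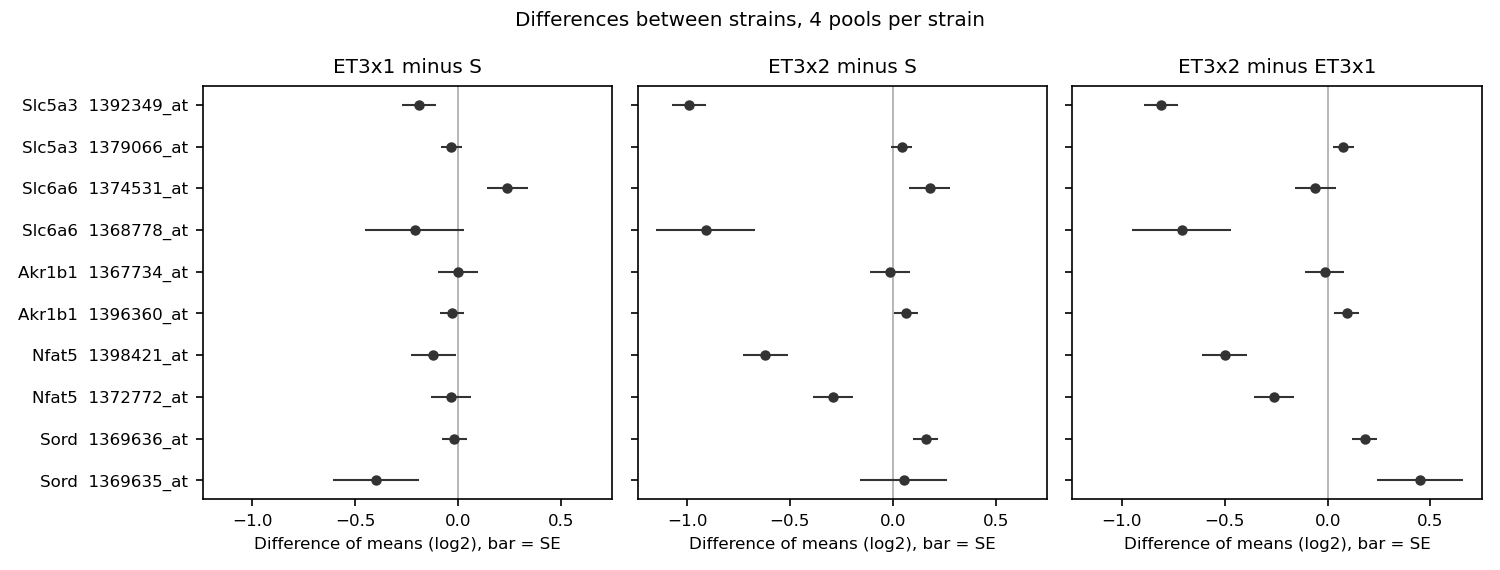
Differences between strain means (log2, horizontal axis) with the standard error of the fit as bars for the 10 probe sets, in the 3 comparisons. Slc5a3 1392349_at, Slc6a6 1368778_at and Nfat5 1398421_at lie left of 0 in both comparisons with ET3x2 (-0.99, -0.91 and -0.62 against S), and the other probe set of Slc5a3 and of Slc6a6 does not follow.

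Counted over the set, 0 of the 10 probe sets passed an adjusted p of 0.05 in limma between ET3x1 and S, and 2 had an unadjusted p under 0.05. Of all 21799 probe sets, 0.44% passed in that comparison and 11.8% had an unadjusted p under 0.05. The pools of ET3x1 and S overlapped for all 10, where 6.4% of all probe sets had pools that did not. Among the 10, 8 were lower and 2 higher in ET3x1, with a median difference of -0.034, and among all probe sets the median was -0.0047 with 51.6% lower.

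Between ET3x2 and ET3x1, 0 of the 8 probe sets of the 4 genes other than Slc5a3 passed in limma, and 5 had an unadjusted p under 0.05. Of all probe sets, 13.1% had an unadjusted p under 0.05 there. With Slc5a3 the count that passed was 1 of 10, beside 1.48% of all probe sets, and nothing is read from the 1. Pools did not overlap for 1 lower and 1 higher of the 8, Nfat5 1398421_at and Sord 1369636_at, beside 9.15% of all probe sets in either direction. The 8 had a median difference of -0.038, against 0.032 for all probe sets.

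Between ET3x2 and S, the contrast by which the set was chosen, 1 of 10 passed beside 0.344% of all probe sets, and 3 lay below and 1 above without overlap beside 5.95%. Nothing is read from these counts. The set was split, with 5 lower and 5 higher and a median of 0.015, against 0.025 for all probe sets. ET3x1 and ET3x2 share the S pools in their comparisons with S, and both comparisons of ET3x2 share its pools.

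**Figure D4:**
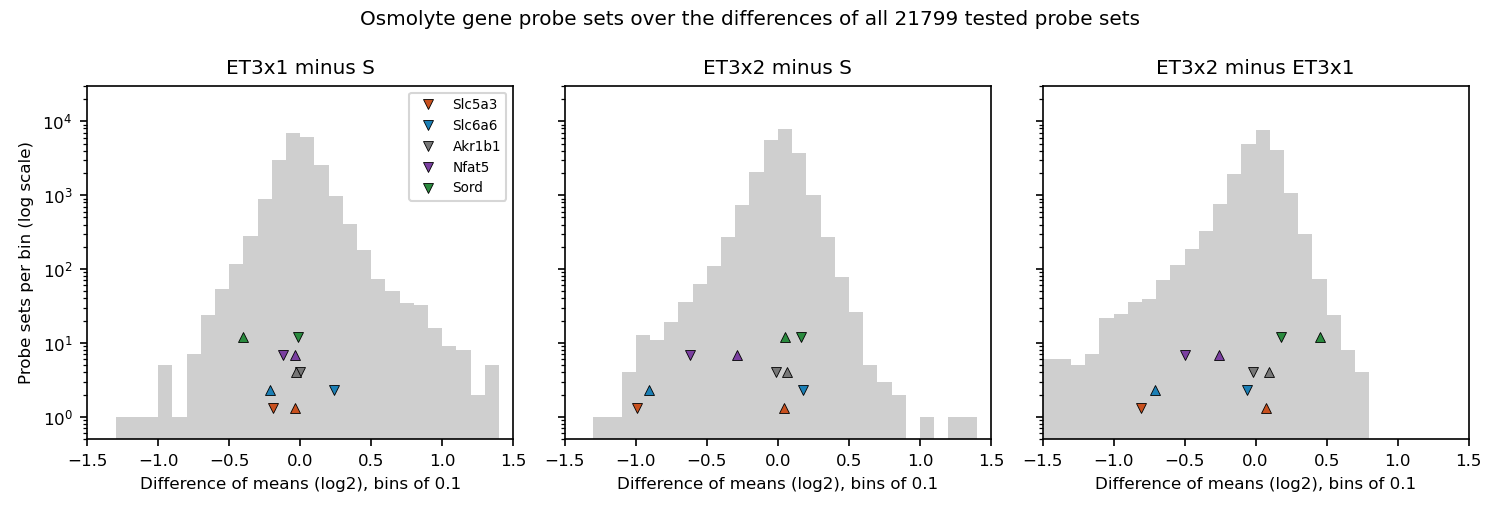
Numbers of probe sets (vertical axis, log scale) by difference between strain means (horizontal axis, log2, in bins of 0.1) for all 21799 tested, in the 3 comparisons, drawn from -1.5 to 1.5; triangles mark the 10 probe sets at their differences, pointing down for the brighter and up for the dimmer probe set of a gene, and their height carries no value. The 5th and 95th percentiles of all probe sets were -0.22 and 0.22 for ET3x2 against S. Left of that range lie 1 probe set of Slc5a3, 1 of Slc6a6 and both of Nfat5 (-0.62 and -0.29).

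Over the 12 pools several members varied together, and the correlations given here shrank or changed sign once each strain's mean was taken away. Slc5a3 1392349_at correlated at 0.816 with Nfat5 1398421_at, at 0.806 with Slc6a6 1368778_at and at -0.885 with Sord 1369636_at. With the strain means taken away these values were -0.293, 0.61 and -0.314. The dimmer Slc5a3 probe set correlated at -0.43 with the brighter one and at -0.461 with the same Nfat5 probe set. Without strain means these were 0.26 and -0.0895. The points share strain and pool, and the values are a description.

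The genes most like each brighter probe set over the 12 pools, among genes on the same array, were found by Pearson's r. Their strain pattern follows from that choice, and nothing is read from it. For Slc5a3 they were Papola, a poly(A) polymerase (0.948), Kmt2c, a histone methyltransferase (0.945), and Zbtb41, a zinc finger gene (0.945), of 4641 genes. By that choice all 3 were lowest in ET3x2, with means of 8.83, 7.64 and 6.84 log2 units against 9.29, 8.32 and 7.69 in S. Their r lay between 0.733 and 0.818 with strain means taken away. For Nfat5 they were Gda, guanine deaminase (0.927), Ccnt2, a cyclin of transcription elongation (0.862), and Celf1, an RNA-binding protein (0.845), of 8127. Once strain means were removed the r of Gda was 0.766, that of Ccnt2 0.415 and that of Celf1 0.301.

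For Sord the most alike were Pgls, an enzyme of the pentose phosphate pathway (0.916), Cisd3 (0.91) and Cmc2 (0.908), the latter both genes of mitochondrial proteins. For Slc6a6 1374531_at they were Mmp14, a membrane metalloproteinase (0.867), Mapt, the tau protein (0.855), and Kmt5a, a histone methyltransferase (0.845). For Akr1b1 they were Mtmr3, a lipid phosphatase (0.932), Rhbdd3 (0.927) and Rab40c (0.904), whose congenic means lay between -0.045 and 0.041 of their S means. The dimmer Sord probe set was matched more closely than any of these, by Cops7a, Txnrd1 and Brat1 at 0.974 each.

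The rest of the osmolyte and hypertonic system was read from 8 lists with 61 genes, of which 54 were tested by 71 probe sets. In limma 0 of 71 passed between ET3x1 and S, where 5 had an unadjusted p under 0.05. In ET3x2, 1 of 71 was lower than in S and 0 higher, beside 0.344% of all probe sets that passed, and 7 had an unadjusted p under 0.05, beside 10.9% of all probe sets. Between ET3x2 and ET3x1 0 passed and 6 had an unadjusted p under 0.05. The shares of all probe sets with an unadjusted p under 0.05 in the other comparisons are the 11.8% and 13.1% given above. The median differences were -0.0074, 0.011 and -0.00055, close to those of all probe sets.

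The 1 was Lrrc8b, a subunit of the channel that lets osmolytes out of swollen cells. Probe set 1378003_at read 9.54, 9.19, 9.54 and 9.62 in S, 9.18, 9.16, 9.0 and 9.05 in ET3x1, and 9.05, 8.90, 8.68 and 9.15 in ET3x2. Both congenic strains lay below all S pools. ET3x2 fell by 0.53 (SE 0.11, limma adjusted p = 0.0486) and ET3x1 differed by -0.38 (adjusted p = 0.177), with -0.15 between the congenic strains (adjusted p = 0.619). The call was lost in 16 of 20 alternatives, with an adjusted p of up to 0.179. The other subunits, Lrrc8a, Lrrc8c, Lrrc8d and Lrrc8e, had tested differences from S of 0.021 to 0.097 in ET3x2 and none passed. A further Lrrc8a probe set, 1382920_at of RAE230A, lay under the filter with a mean of 6.97 log2 units and was not tested. It differed from S by -0.44 in ET3x2 and by -0.41 in ET3x1.

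Of the 7 probe sets of inositol handling, 0 passed in limma in any comparison. Those with an unadjusted p under 0.05 numbered 0 for ET3x1 against S, 1 for ET3x2 against S and 2 for ET3x2 against ET3x1. Of all probe sets the shares were 11.8%, 10.9% and 13.1%. The largest differences of ET3x2 from S were those of Slc2a13, a proton-coupled myo-inositol carrier, with -0.44 on 1389310_at (SE 0.15, adjusted p = 0.272) and -0.22 on 1369680_at (SE 0.15, adjusted p = 0.589), and the pools of both strains overlapped on each. Miox, which breaks myo-inositol down in the proximal tubule, differed by 0.020 in ET3x1 and 0.079 in ET3x2 from S (limma adjusted p = 0.917 and 0.689). Isyna1, which makes myo-inositol, differed by -0.15 and 0.083 (0.435 and 0.738). Impa1, which frees inositol from its phosphate, differed by 0.033 and -0.21 (0.917 and 0.482), and Slc5a11, a related inositol carrier, by 0.058 and 0.014 (0.866 and 0.971). Between ET3x2 and ET3x1 Isyna1 was 0.23 higher and Impa1 0.24 lower, with adjusted p of 0.193 and 0.307.

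Among the chaperones that hypertonicity can raise, 6 of 9 probe sets were lower in ET3x2 than in S, with a median of -0.25, beside 41% of all probe sets. The 9 belong to 7 genes. The lower ones were both probe sets of Dnajb1, both of Hsph1, Hspa1a and Hspa5, so some genes were counted more than once. Cryab, Hspb1 and Hspa4l were higher. In ET3x1, too, 6 of 9 were lower than in S, with a median of -0.084. Between ET3x2 and ET3x1 4 were lower and 5 higher, with a median of 0.025. For ET3x2 against S 0 passed in limma and 1 had an unadjusted p under 0.05, beside 10.9% of all probe sets. The largest difference there was that of Hspa1a, a heat shock protein (-0.55, limma adjusted p = 0.143), which in ET3x1 differed from S by -0.31 (adjusted p = 0.345). Hspa4l, another Nfat5 target, differed by 0.17 between ET3x2 and S (adjusted p = 0.722). Slc38a2, an amino acid carrier that responds to hypertonicity, differed by -0.26 (adjusted p = 0.447). The median difference of the 16 probe sets of Nfat5 partners and regulators was 0.00049 in the same comparison, with 9 higher and 7 lower. In limma 0 passed and 3 had an unadjusted p under 0.05, beside 10.9% of all probe sets. These were both probe sets of Ddx5 (-0.29 and -0.41) and Map3k3 1392577_at (-0.25). The other tested Map3k3 probe sets differed by 0.049 and -0.019.

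**Figure D5:**
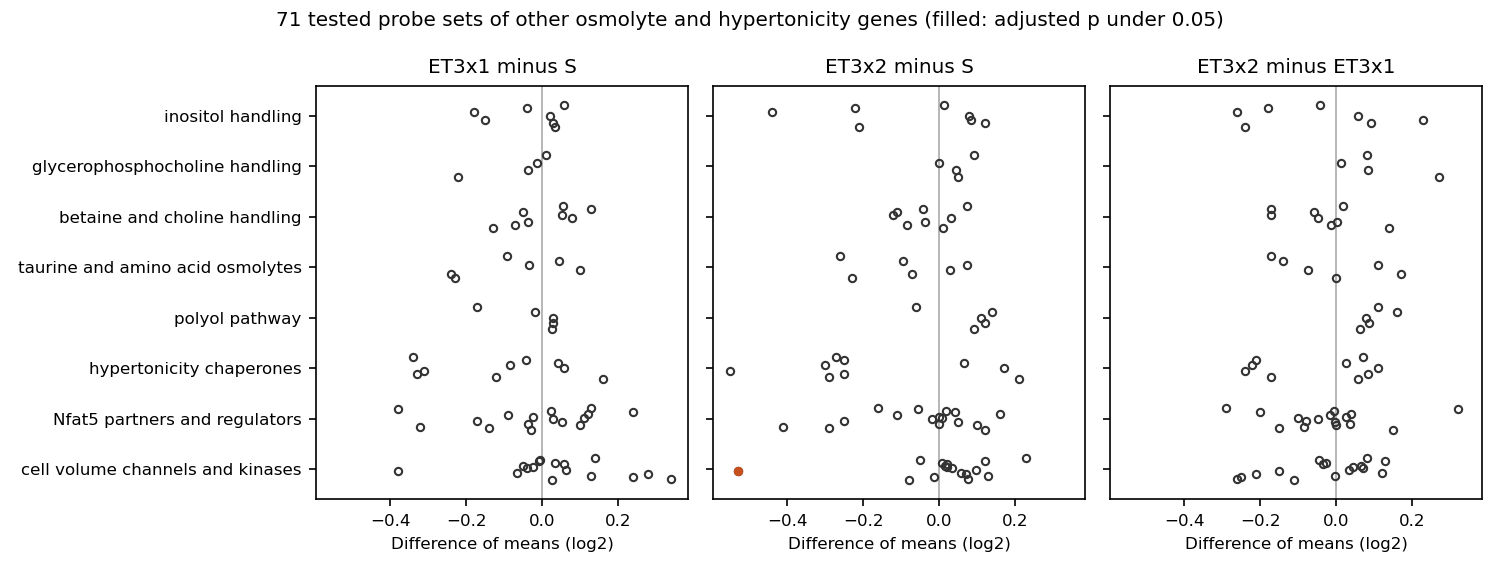
Differences between strain means (log2, horizontal axis) of the 71 tested probe sets of 8 other osmolyte and hypertonicity lists (rows) in the 3 comparisons; each circle is a probe set, filled where the adjusted p was under 0.05. The only filled circle is Lrrc8b at -0.53 in ET3x2 against S, and the chaperones of that comparison spread from -0.55 to 0.21.

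The carriers are expressed most in the medulla, so markers of kidney regions are given beside the result for Slc5a3. Signals in whole kidney cannot tell fewer cells of a type from less RNA per cell. Averaged over 9 probe sets of collecting duct and thin limb markers, the pools lay at 9.77 to 9.84 in S, 9.73 to 9.83 in ET3x1 and 9.83 to 9.88 in ET3x2. Of the 9, which belong to 6 genes, 7 were higher and 2 lower in ET3x2 than in S, where 41% of all probe sets were lower. In limma 0 passed, and 0 had an unadjusted p under 0.05, beside 10.9% of all probe sets. Aqp2, the water channel of the collecting duct, differed by -0.18 in ET3x1 and -0.093 in ET3x2 from S (limma adjusted p = 0.333 and 0.679), and its ET3x2 pools, at 12.61 to 12.65, all lay below the S pools, at 12.69 to 12.78. Aqp4, the other lower one, differed by -0.10 on 1372190_at with overlapping pools. The urea transporter Slc14a2 differed by 0.10, 0.019 and 0.082 between ET3x2 and S on the 3 of its 5 probe sets that passed the filter.

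Thick limb markers averaged 10.60 to 11.15 in S, 10.88 to 11.14 in ET3x1 and 10.70 to 10.99 in ET3x2 over 4 probe sets. All 4 were lower in ET3x2 than in S, where 41% of all probe sets were lower. The largest of these differences was that of the salt carrier Slc12a1, -0.39 (limma adjusted p = 0.192), and the others lay between -0.13 and -0.015. Slc12a1 is on chromosome 3, the chromosome of the congenic pieces, and the part of that in its signal was not tested. Proximal tubule markers averaged 12.76 to 12.95, 12.78 to 12.90 and 12.88 to 12.93. Leukocyte markers averaged 10.53 to 10.58 in S, 10.55 to 10.77 in ET3x1 and 10.61 to 10.90 in ET3x2 over 3 of 6 probe sets, with both probe sets of Ptprc, the defining leukocyte gene, under the filter. All 3 were higher in ET3x2 than in S, and 2 had an unadjusted p under 0.05, beside 10.9% of all probe sets. Cd74 was 0.24 and Cd3e 0.23 higher (limma adjusted p = 0.202 and 0.298), each with all ET3x2 pools above the S pools, where 5.95% of all probe sets did not overlap. Cd68 was 0.15 higher with overlapping pools. A Cd3e probe set under the filter differed by 0.022.

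Podocyte markers averaged 9.12 to 9.43, 9.19 to 9.41 and 9.26 to 9.44, and endothelial markers 9.28 to 9.45, 9.25 to 9.50 and 9.35 to 9.42. Over all 6 lists, 0 of 30 probe sets passed in limma in any of the 3 comparisons. Those with an unadjusted p under 0.05 numbered 5 for ET3x1 against S, 3 for ET3x2 against S and 5 for ET3x2 against ET3x1. The shares of all probe sets were 11.8%, 10.9% and 13.1%. The part of cell makeup in the Slc5a3, Slc6a6 and Nfat5 signals was not tested.

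The measured genes on either side of each member, 2 on each side, gave 20 probe sets of 20 genes, and 0 passed in limma in any comparison. Unadjusted p-values under 0.05 numbered 2 for ET3x1 against S, 1 for ET3x2 against S and 0 for the congenic strains against each other. Among all probe sets the shares were 11.8%, 10.9% and 13.1%. All of those under 0.05 were neighbours of Slc5a3, beside which stood Mrps6, Atp5po, Kcne2 and Smim11. Mrps6 and Smim11 were each 0.36 above S in ET3x1 (limma adjusted p = 0.17 and 0.248). They were the 2 of 20 whose pools did not overlap in that comparison, beside 6.4% of all probe sets. Atp5po was 0.28 above S in ET3x2 (adjusted p = 0.314) with overlapping pools. Kcne2 differed from S by -0.049 in ET3x1 and 0.055 in ET3x2. Beside Nfat5 stood Cyb5b, Terf2, Nqo1 and Nob1. Beside Sord, on chromosome 3, were B2m, Eif3j, Duox2 and Duoxa1, of which B2m, the light chain of MHC class I, differed by 0.15 in ET3x1 and 0.074 in ET3x2 from S. Akr1b8 and Akr1b10, related reductases next to Akr1b1, differed by 0.14 and 0.12 in ET3x2 from S (adjusted p = 0.606 and 0.706).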

How the data were processed

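Each of the 12 pools had a deposited log2 signal per probe set on RAE230A (15866 probe sets without controls) and RAE230B (15276). How the authors summarised and normalised the arrays is not given in the sources used here, and the log2 scale of the deposited values was inferred from their range (4.10 to 15.24). Probe sets were named where the platform annotation given for this work holds exactly 1 symbol, updated through RefSeq gene identifiers.

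Control probe sets were left out, as were those with a 12-pool mean below the array's 30th percentile (7.52 and 6.85 log2 units), leaving 11106 and 10693. Each array was fitted as a whole with limma 3.58.1 (lmFit, eBayes with trend) in R 4.3.3, with 3 strains of 4 pools and no covariate. P-values are two-sided, with Benjamini-Hochberg adjustment for each array and comparison and a threshold of 0.05. The procedure was also run on simulated data with independent noise for each probe set and pool. Those data held no difference in RNA quality between pools, and no result here rests on them. Every difference is between means of deposited log2 signals.

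Named are all probe sets of the 6 genes, list genes that passed, 9 further genes listed by name (Mrps6, Miox, Isyna1, Impa1, Slc5a11, Slc38a2, Hspa4l, Slc14a2 and Aqp2), the 3 genes most alike to each brighter probe set, and the 2 measured neighbours on each side. Hspa1a, Slc2a13, Aqp4, Slc12a1, the subunits beside Lrrc8b and the genes like the dimmer Sord probe set were named after their values were seen. So were Ddx5, Map3k3, Cd74, Cd3e, Cd68 and the chaperones other than Hspa4l. The genes followed and all lists were chosen with earlier results of these data known. Alternatives changed the filter, scaling, weights, prior and groups fitted, left out each pool in turn, and left out pools A, B and J. The pools of different strains share no replicate letter. Figures used matplotlib 3.10.9 in Python 3.11.15.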

Additional observations from a re-analysis of the deposited data

How the results depend on the processing

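The 30 differences (10 probe sets, 3 comparisons) were recomputed under up to 20 alternatives each, 597 values in all. Of these 554 kept direction and side of the threshold, 22 newly passed, 0 no longer passed, and 21, none of which passed before or after, changed sign. Nearly all sign changes were of differences close to 0. Akr1b1 1367734_at in ET3x1 against S was -0.013 after quantile normalisation, -0.00045 after median centring, -0.059 with array weights and -0.090 to 0.062 with a pool left out. In ET3x2 against S it was 0.018 without pools A, B and J and -0.043 to 0.040 with a pool left out, and in ET3x2 against ET3x1 0.011 with array weights and -0.075 to 0.077. Akr1b1 1396360_at in ET3x1 against S was 0.0012 without A, B and J and -0.054 to 0.0023 with a pool left out. Nfat5 1372772_at in that comparison was 0.036 and -0.090 to 0.024. Sord 1369635_at in ET3x2 against S was -0.060 with array weights and -0.11 to 0.18 with a pool left out. Slc6a6 1368778_at in ET3x1 against S was 0.083 without pool H (-0.36 to 0.083 over the pools). As means of both probe sets, Slc6a6 in ET3x2 against S was -0.37 and Akr1b1 -0.014, 0.025 and 0.039 in the 3 comparisons. The next counts include the Slc5a3 probe set by which the genes were chosen, and nothing is read from them or their stability. Members passing in ET3x2 against S numbered 1, with 2 under a 50th-percentile filter, 3 with array weights, 2 without a trended prior, and 1 to 2 with a pool left out. In ET3x2 against ET3x1 they numbered 1, with 2, 6 and 2 under the same settings, 2 with the compared groups alone, and 1 to 2 with a pool left out. List probe sets passing in ET3x2 against S numbered 1, with 0 without a filter, after quantile normalisation, after median centring, with the compared groups alone and without A, B and J, 5 with array weights, and 0 to 3 with a pool left out. In ET3x2 against ET3x1 they numbered 0, with 2 under array weights and 0 to 1 with a pool left out. The cause was not tested. The 50th-percentile filter left out Slc5a3 1379066_at. No paired analysis was possible because pools of different strains share no letter.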
